A study of Oryctolagus cuniculus with 17 samples.

Results

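The genes that start, restrain and resolve blood clotting were examined in the lungs of preterm rabbit pups raised in high oxygen. The group holds the plasminogen activators PLAU (urokinase) and PLAT (tissue plasminogen activator), the urokinase receptor PLAUR, the protease inhibitor SERPINE2, the clotting initiator F3 (tissue factor), its inhibitors TFPI and TFPI2, and the protein C pathway receptors THBD and PROCR. Members were taken by gene symbol, with no threshold on their values. Of the 9 symbols, 7 had a row in the count table of 13827 entries, and these 7 were all among the 13142 entries tested. TFPI2 and THBD were not analysed here.

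Clotting begins when tissue factor, which is held on cells outside the bloodstream, meets factor VII from plasma. TFPI blocks this first complex, and the protein C pathway, in which PROCR presents protein C to thrombin bound by thrombomodulin, shuts the cascade down. Clots are removed by plasmin, which urokinase and tissue plasminogen activator cut from plasminogen, and PLAUR holds urokinase at the cell surface. In injured lungs, fibrin left in the airspaces is a well known feature, and alveolar epithelial cells and macrophages can make tissue factor, urokinase and PLAUR.

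New Zealand White pups were taken by C-section before term, at gestational day 28, and were kept in incubators on milk replacer. Hyperoxia pups breathed 95% oxygen and normoxia pups 21% oxygen, and right lungs were taken as whole homogenates after 3, 5 or 7 days (HT3, HT5 and HT7, and NT3, NT5 and NT7). Preterm birth, incubator and feeding were thus shared by every group, the normoxia controls included, and no term-born animals entered these comparisons. There were 3 samples in each group except HT5, which had 2. The labels do not say whether samples of a group came from separate litters, so p-values measure the spread between these samples. Litter effects were not tested.

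Expression was measured by RNA-seq of polyadenylated RNA, deposited as counts of reads per gene locus. With 1 entry per locus, the 17 libraries held between 13123731 and 18111086 counts, and the 16 pairs of libraries of the same group all differed by more than counting noise, with a chi-square per degree of freedom of 16.1 to 91.1. The lung label fitted the surfactant and alveolar genes SFTPC, SFTPB, SFTPA1, SFTPD and AGER, whose summed level lay between 12704 and 32464 CPM in every library. CPM here are counts scaled to a common library total with a TMM factor. Since the files give no transcript lengths, levels are compared between samples of 1 gene and never between genes.

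The 7 genes each had 1 row, and none shared its locus or overlapped another entry on the build OryCun2.0. PLAU (ENSOCUG00000003155) lies on chr18:13595218-13601355, PROCR (ENSOCUG00000016598) on chr4:4622624-4626162 and F3 (ENSOCUG00000004834) on chr13:69962637-70014170. SERPINE2 (ENSOCUG00000004359) and TFPI (ENSOCUG00000008253) both lie on chromosome 7, at chr7:165488712-165552713 and chr7:127829920-127896290. PLAT (ENSOCUG00000009967) and PLAUR (ENSOCUG00000027400) are on unplaced scaffolds, GL018706:1094280-1113442 and GL018881:85638-104322.

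The question was which arm of this system moved under oxygen, and on which day. In hyperoxia the clotting initiator F3 rose on days 5 and 7, the urokinase receptor PLAUR on day 7 and PROCR on day 5. The PROCR call was lost when any 1 normoxia sample of day 5 was left out. The activators PLAU and PLAT and the inhibitors SERPINE2 and TFPI were not called on any day. A gene was called changed at an adjusted p under 0.01 by edgeR's quasi-likelihood test with Benjamini-Hochberg adjustment over all genes tested, and a DEG if its log2 fold change of hyperoxia over normoxia (log2FC) was also beyond 2 or -2. On day 3, none of the 7 genes was called, against 0.0989% of all genes called higher and 0.107% called lower. With the day 3 samples alone, calls over all genes went from 27 to 26, and to 8 with same-numbered samples also paired. None of the 7 was called in either fit. None of the 7 reached an unadjusted p under 0.05 on that day, and DESeq2 called none of them either. On day 5, F3 and PROCR were called higher and none lower, where 8.56% of all genes were called higher and 7.62% lower. These day 5 calls rest on a spread shared by all 17 samples: fitted with the day 5 samples alone, none of the 7 genes was called, and calls over all genes went from 2126 to 12. On day 7, F3 and PLAUR were called higher and none lower, where 16.7% of all genes were called higher and 16.9% lower. Both genes were DEGs on day 7, PLAUR narrowly, and 1.75% of all genes passed that threshold in the higher direction. The corresponding share of higher DEGs was 0.0533% on day 3 and 0.822% on day 5, with none of the 7 genes among them. The median log2FC of the 7 genes was 0.02, 0.34 and 0.54 on the successive days. That of all genes was 0.00, -0.02 and -0.01. With 7 genes the median is the value of 1 gene, here TFPI, PLAU and PLAT in turn. Without HT7 replicate 1 the day 7 log2FC of PLAT was -0.37. Without HT5 replicate 1 the day 5 log2FC of PLAU was 0.07.

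**Figure D1:**
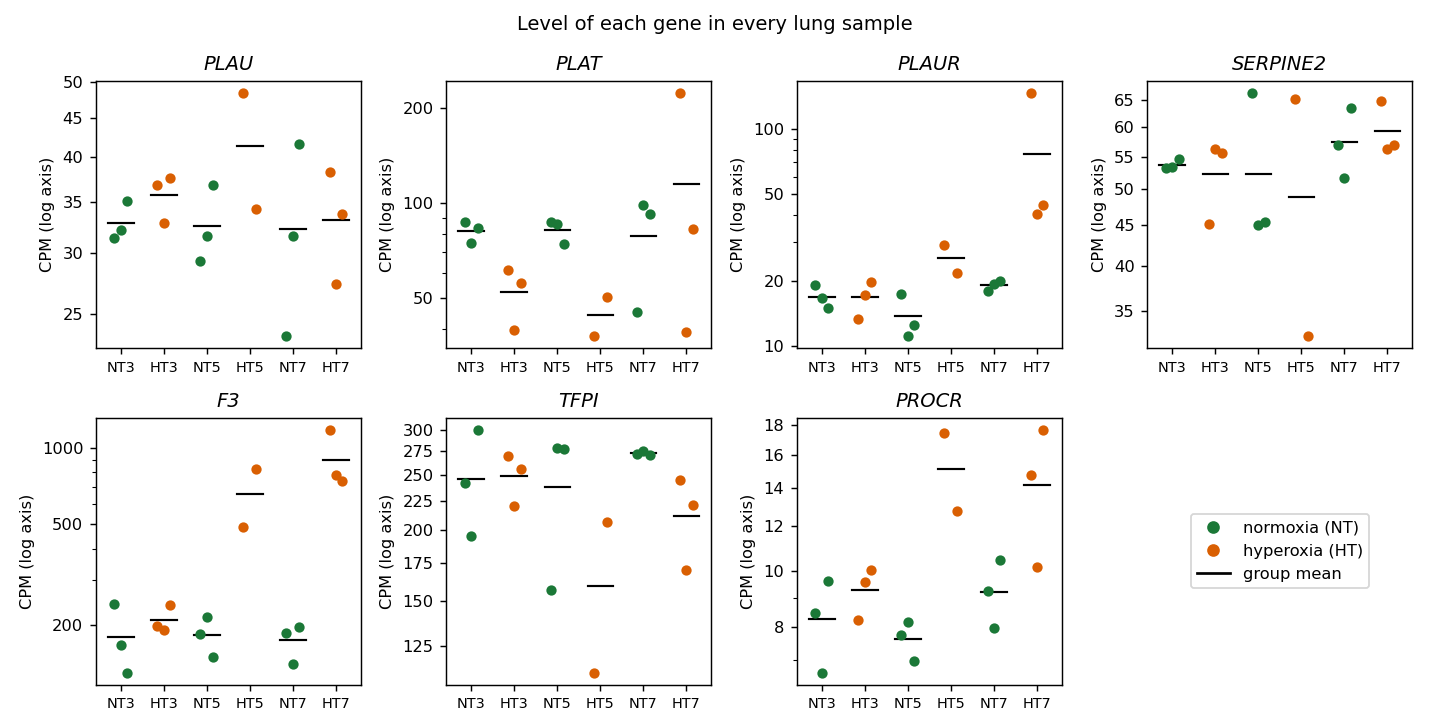
Level of each of the 7 genes in every lung sample, in CPM on a log axis with its own range for each gene; points are samples (green normoxia, orange hyperoxia) and bars are group means. F3 in HT5 and HT7 lies above every normoxia sample, PLAUR in HT7 reaches 146 CPM in 1 sample, and SERPINE2 and PLAU overlap between conditions on every day.

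F3 encodes tissue factor, the cell surface receptor for factor VII. On day 3 it stood at 197, 191 and 239 CPM in HT3 and at 241, 166 and 129 CPM in NT3. The groups overlapped. On day 5 it stood at 486 and 829 CPM in HT5 and at 183, 215 and 149 CPM in NT5. On day 7 it stood at 1179.7, 785 and 737 CPM in HT7 and at 185, 139.8 and 195 CPM in NT7. On both later days every hyperoxia sample lay above every normoxia sample of that day, as was so for 26.5% of all genes on day 5 and 27.3% on day 7. The group means were 658 ± 243 CPM (SD, n = 2) in HT5 and 900.5 ± 243 CPM (SD, n = 3) in HT7, against 182 ± 32.9 and 173 ± 29.4 CPM (SD, n = 3 each) in NT5 and NT7. The fold of hyperoxia over normoxia was 3.61 on day 5 (95% confidence interval 2.39 to 5.46), with a log2FC of 1.85 ± 0.28 (SE) and an adjusted p of 0.000416 by edgeR. On day 7 the fold was 5.20 (3.51 to 7.70), with a log2FC of 2.38 ± 0.27 (SE) and an adjusted p of 1e-05 by edgeR. On day 3 the log2FC was 0.23, with an interval of -0.32 to 0.77.

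Ordered by mean level, F3 ran from HT7 and HT5 to HT3 at 209 CPM and then to NT5, NT3 and NT7. HT7 and HT5 overlapped, HT5 and HT3 did not, and each later neighbour in that order overlapped the next. The 9 normoxia samples of all days lay between 129 and 241 CPM. The rise on day 5 was called in 4 of the 5 fits that left out 1 sample. Without HT5 replicate 2, the sample at 829 CPM, the log2FC was 1.40 with an adjusted p of 0.0158 by edgeR, and with the day 5 samples alone it was 1.86 with an adjusted p of 0.0161. The rise on day 7 was called in all 6 such fits, with a log2FC between 2.14 and 2.51.

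TFPI, the inhibitor of the tissue factor complex, was not called on any day. It stood at 245, 169.7 and 221 CPM in HT7 and at 272, 275 and 271 CPM in NT7. All HT7 samples thus lay below all NT7 samples, as 27.2% of all genes did on that day, and the log2FC of -0.36 (interval -0.88 to 0.15) was not called, with an adjusted p of 0.228 by edgeR. On day 5 the values were 112 and 207 CPM in HT5 and 157, 279 and 277 CPM in NT5, and the groups overlapped. The log2FC of day 5 was -0.58 (interval -1.16 to 0.01), not called, with an adjusted p of 0.119 by edgeR. It depended on single libraries, at -0.20 without HT5 replicate 1, -1.10 without HT5 replicate 2 and -0.80 without NT5 replicate 1, none of them called. On day 3, HT3 held 269, 220.1 and 256 CPM and NT3 held 242, 195 and 299.7 CPM, with a log2FC of 0.02 (interval -0.50 to 0.53).

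Since both genes were counted in each library, the counts of F3 can be set against those of TFPI within a sample. This ratio was chosen after the values were seen and is given without a test. In the 9 normoxia samples, F3 counts were between 0.431 and 1.17 times the TFPI counts, with a mean of 0.740 ± 0.239 (SD, n = 9). In HT3 the ratio lay between 0.731 and 0.935, inside that range. It was 4.33 and 4.02 in HT5 and 4.81, 4.62 and 3.34 in HT7. The HT5 and HT7 samples lay close together and apart from every other sample, and, as the files give no lengths, the ratio describes change between samples and not which transcript was more abundant.

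**Figure D2:**
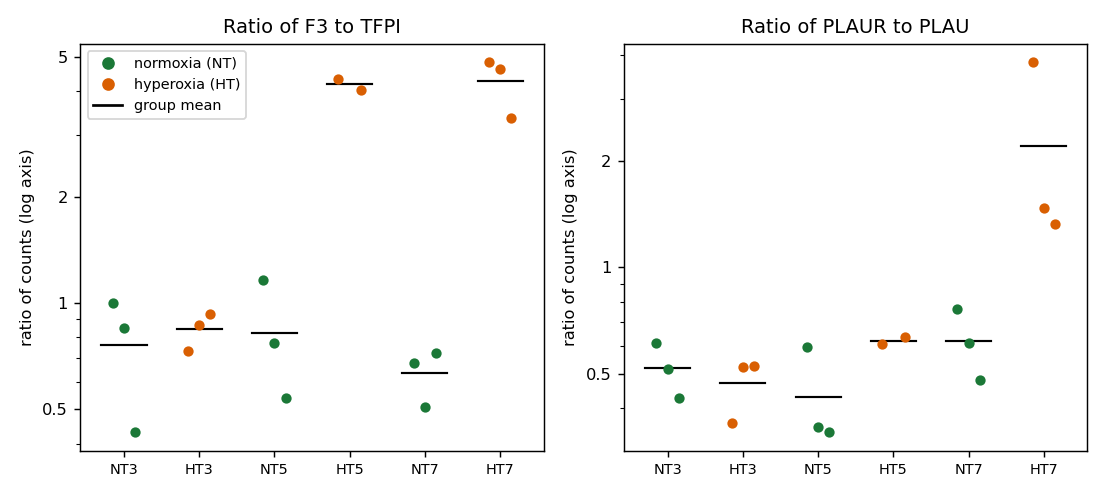
Ratio of the counts of F3 to TFPI (left) and of PLAUR to PLAU (right) within each library, on log axes; points are samples (green normoxia, orange hyperoxia) and bars are group means. F3 to TFPI stands between 3.34 and 4.81 in HT5 and HT7 and at or below 1.17 elsewhere, and PLAUR to PLAU is between 1.33 and 3.81 in HT7 and at or below 0.764 elsewhere.

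PROCR, the endothelial protein C receptor, was the least counted gene of the group, at 118 to 345 counts a library. It stood at 17.5 and 12.8 CPM in HT5 and at 7.76, 8.15 and 6.98 CPM in NT5, with both HT5 samples above all NT5 samples, as for 26.5% of all genes. The fold was 1.98 (interval 1.40 to 2.80), with a log2FC of 0.99 ± 0.23 (SE) and an adjusted p of 0.00609 by edgeR. This call was lost in each of the 5 fits without 1 of the samples of day 5, where the adjusted p by edgeR ran from 0.0145 to 0.0586 and the log2FC from 0.74 to 1.18. On day 7, PROCR stood at 14.7, 10.2 and 17.7 CPM in HT7 and at 9.23, 7.96 and 10.5 CPM in NT7. HT7 replicate 2 fell within the normoxia range, and the log2FC of 0.62 ± 0.21 (SE) was not called, with an adjusted p of 0.0256 by edgeR. Without that sample it was 0.82 with an adjusted p of 0.00364 by edgeR. In HT3 the values were 8.22, 9.58 and 10.04 CPM, and in NT3 8.46, 6.65 and 9.61 CPM, which overlapped.

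PLAUR tethers urokinase to the cell surface and is made by myeloid and epithelial cells. On day 7 it stood at 146, 40.4 and 44.7 CPM in HT7 and at 17.9, 19.4 and 19.9 CPM in NT7. All HT7 samples were above NT7, as for 27.3% of all genes, and HT7 replicate 1 stood far above the rest. The group means were 77.0 ± 59.7 CPM and 19.1 ± 1.05 CPM (SD, n = 3 each), and the fold was 4.03 (interval 2.29 to 7.11). The log2FC of 2.01 ± 0.38 (SE) had an adjusted p of 0.000623 by edgeR. Without HT7 replicate 1 it was 1.16, still called with an adjusted p of 0.000715 by edgeR, but no longer a DEG. It was also under the DEG threshold with upper-quartile normalization (1.98), and with 1 entry per locus it lay at 2.00, just below it. In the fit restricted to the samples of day 7 the adjusted p by edgeR was 0.0111, above the threshold, at a log2FC of 2.02.

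On day 5, PLAUR stood at 29.3 and 21.8 CPM in HT5 and at 17.4, 11.1 and 12.6 CPM in NT5. Both HT5 samples were above NT5, as 26.5% of all genes were on that day. The log2FC of 0.89 (interval 0.01 to 1.78) was not called, with an adjusted p of 0.112 by edgeR. On day 3, PLAUR stood at 13.3, 17.2 and 19.8 CPM in HT3 and at 19.2, 16.6 and 14.96 CPM in NT3, and the log2FC was -0.01 (interval -0.82 to 0.79). By mean level the order was HT7, HT5, NT7, NT3, HT3 and NT5. Neither HT7 and HT5 nor HT5 and NT7 overlapped, and NT3, HT3 and NT5 overlapped one another.

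PLAU, the urokinase that PLAUR binds, was not called on any day. Its 9 normoxia samples ran from 23.4 to 41.6 CPM with a median of 31.6, and its 8 hyperoxia samples from 27.4 to 48.4 CPM with a median of 35.5. The conditions overlapped on each day. The log2FC was 0.12, 0.34 and 0.04 on days 3, 5 and 7, with intervals of -0.29 to 0.52, -0.11 to 0.79 and -0.37 to 0.44. Changes beyond these bounds were therefore outside the intervals, and what size of change could be seen with these samples was not tested. The ratio of PLAUR to PLAU counts, also chosen after the values were seen, lay between 0.341 and 0.764 in the 9 normoxia samples and between 0.362 and 0.527 in HT3. It was 0.605 and 0.635 in HT5, within the normoxia range, and 3.81, 1.47 and 1.33 in HT7, above it.

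PLAT encodes the tissue plasminogen activator, which endothelial cells release. On day 3 it stood at 61.5, 39.6 and 56.0 CPM in HT3 and at 86.9, 74.7 and 83.4 CPM in NT3. On day 5 it stood at 38.0 and 50.5 CPM in HT5 and at 86.9, 86.0 and 74.2 CPM in NT5. All hyperoxia samples were below normoxia on both days, as 13.9% of all genes were on day 3 and 29.2% on day 5. Neither difference was called. The log2FC was -0.64 (interval -1.58 to 0.30) on day 3, with an adjusted p of 0.518 by edgeR, and -0.89 (interval -1.97 to 0.18) on day 5, with an adjusted p of 0.189. With a spread estimated from the day alone, which leaves out the scattered HT7 samples, the adjusted p was 0.0828 on day 3 and 0.0250 on day 5, and on day 3 it was 0.0412 with same-numbered samples paired, all above 0.01.

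On day 7 the PLAT samples scattered. HT7 stood at 223, 39.1 and 82.8 CPM, and NT7 at 45.2, 99.0 and 92.3 CPM. The highest value of all 17 samples was in HT7 replicate 1, the sample that was also highest for PLAUR and F3, and HT7 replicate 2 was within the HT5 range. The log2FC was 0.54 (interval -0.39 to 1.48) and not called, with an adjusted p of 0.326 by edgeR. Without HT7 replicate 1 the sign turned to -0.37. The direction of PLAT on day 7 therefore rested on that 1 library.

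SERPINE2 encodes protease nexin 1, an inhibitor of thrombin, urokinase and tissue plasminogen activator. It ran from 45.1 to 66.2 CPM (median 53.4) in the 9 normoxia samples and from 32.6 to 65.2 CPM (median 56.2) in the 8 hyperoxia samples. Conditions overlapped on each day. The log2FC was -0.04, -0.10 and 0.05 on days 3, 5 and 7, with intervals of -0.47 to 0.40, -0.59 to 0.39 and -0.39 to 0.48. The widest gap within a group was on day 5, between 65.2 and 32.6 CPM in HT5.

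**Figure D3:**
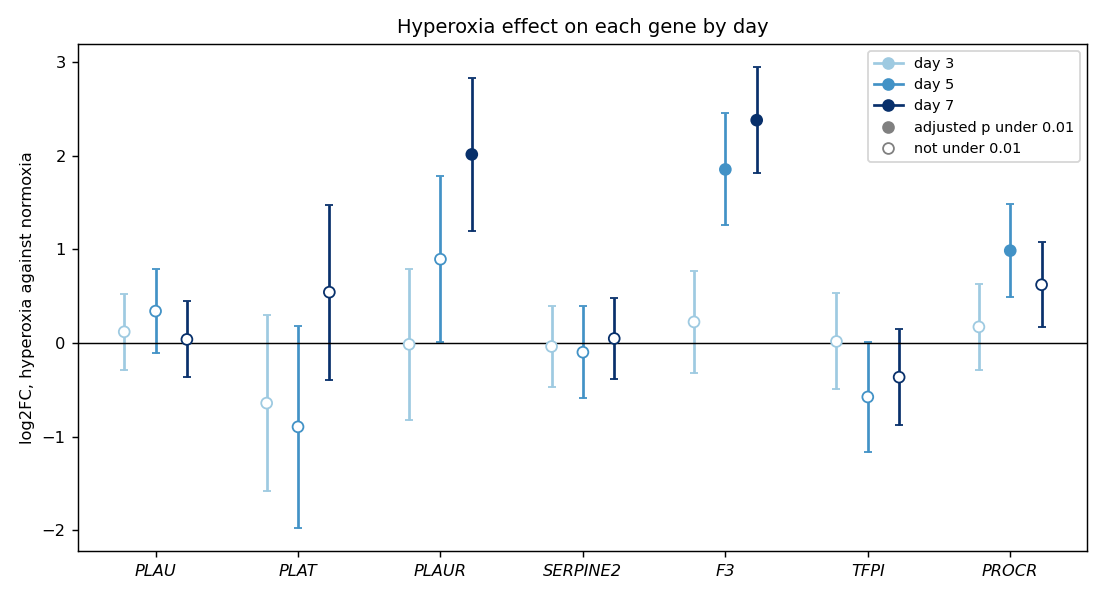
Log2FC of hyperoxia over normoxia for each of the 7 genes on days 3, 5 and 7 (light to dark blue), with 95% confidence intervals from the edgeR fit; filled points passed an adjusted p of 0.01. Filled points are F3 and PROCR on day 5 and F3 and PLAUR on day 7, at log2FC of 1.85, 0.99, 2.38 and 2.01.

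Whether the effect of hyperoxia itself changed with time was tested as the difference of the log2FC between days. Between days 7 and 3, F3 was the only 1 of the 7 genes called, with a difference of 2.15 ± 0.36 (SE) and an adjusted p of 0.00195 by edgeR, where 7.27% of all genes were called in either direction. F3 was called in each of the 12 fits without 1 sample, at 1.87 to 2.34. The difference for PLAUR was 2.03 ± 0.53 (SE) and missed the threshold, with an adjusted p of 0.0169 by edgeR. DESeq2 called it, with an adjusted p of 0.00117, and without HT7 replicate 1 the difference was 1.17, with an adjusted p of 0.0168 by edgeR. PLAT moved by 1.18 (interval -0.14 to 2.51) and PROCR by 0.45 (interval -0.19 to 1.09), neither called. Without HT7 replicate 1 the difference for PLAT was 0.27, and 1.60 without HT7 replicate 2.

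Between days 5 and 3, none of the 7 genes was called, and the share over all genes was 0% by edgeR, with 2664 of 13142 genes at an unadjusted p under 0.05 and 309 called by DESeq2. The differences were 1.63 ± 0.38 (SE) for F3, with an adjusted p of 0.0484 by edgeR, and 0.81 ± 0.32 (SE) for PROCR, with an adjusted p of 0.169. F3 and PROCR were the members at an unadjusted p under 0.05, and DESeq2 called F3, with an adjusted p of 0.00229. Both differences use the same samples of day 3.

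Across the 17 samples, the highest correlations within the group were among F3, PLAUR and PROCR. On log2 CPM, Pearson's r was 0.82 for F3 and PLAUR, 0.78 for F3 and PROCR and 0.70 for PLAUR and PROCR, and the lowest r of the 21 pairs was -0.41, for F3 and TFPI. These are descriptions over samples that share libraries and fall into hyperoxia and normoxia groups, so a gene that moved with oxygen correlates with any other that did. Among 11365 genes, those closest to F3 were IMPDH2 (r of 0.98), IRAK1 and PWP1 (0.97 each), and those closest to PLAUR were NDUFAF3 and UBE2G2 (0.95 each). PROCR was closest to PLSCR1, UMPS and ITGB6 (0.89 each), PLAT to NARF (0.90), GNB1 (0.88) and PHC2 (0.84), TFPI to VRK3 (0.84), MED25 and VTA1 (0.83 each), and SERPINE2 to RAB25, TMEM79 and CMTM7 (0.83 each). PLAU had no close match, with its highest r at 0.69, for BCL10.

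The rest of the pathway was read from 4 lists of 58 genes, of which 31 were tested, 3 were under the count filter and 24 were not analysed here. Over the 4 lists, 0 of 31 genes were called on day 3, 4 were called higher and 2 lower on day 5, and 6 were called higher and 3 lower on day 7. That is 19.4% of the 31 genes on day 5 and 29.0% on day 7, near the shares of all genes on those days (8.56% higher and 7.62% lower, then 16.7% and 16.9%). The median log2FC of the 31 genes was 0.09, 0.04 and 0.08 on the successive days. The median of 0.04 on day 5 was 0.00 with genes of 3 or fewer counts throughout a group set at their bound.

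**Figure D4:**
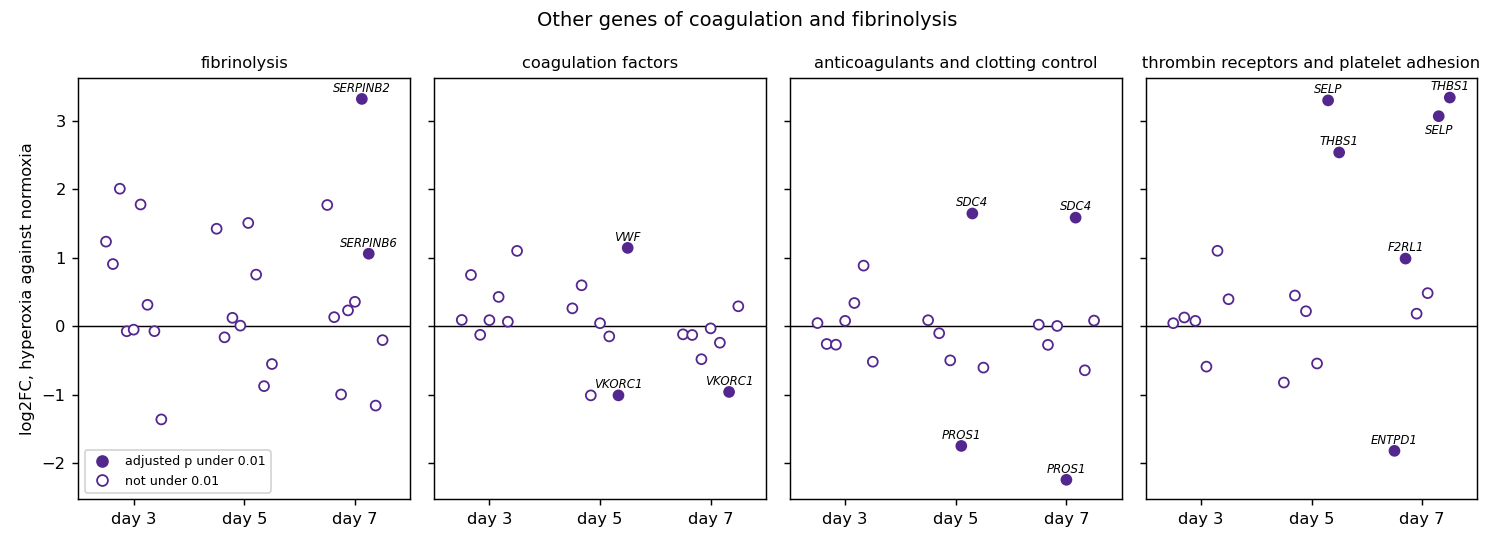
Log2FC of hyperoxia over normoxia for the genes of 4 lists of coagulation and fibrinolysis on days 3, 5 and 7; each point is 1 gene, filled where the adjusted p by edgeR was under 0.01, with 85 of 93 points drawn and 8 left out because a whole group held 3 or fewer counts. THBS1 at 3.34 and SERPINB2 at 3.32 on day 7 and SELP at 3.30 on day 5 stand highest, and PROS1 stands lowest at -2.24 on day 7.

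In the fibrinolysis list, none of 9 tested genes was called on days 3 and 5, and 2 were called higher and none lower on day 7. The medians were 0.31, 0.01 and 0.23. Of all genes, 16.7% were called higher and 16.9% lower on day 7. SERPINB2, an inhibitor of urokinase, stood at 17.02, 2.12 and 4.25 CPM in HT7 and at 1.30, 0.405 and 0.623 CPM in NT7. All HT7 samples were above NT7, as for 27.3% of all genes, and the highest was again HT7 replicate 1. The log2FC was 3.32 ± 0.84 (SE), with an adjusted p of 0.00473 by edgeR, and without HT7 replicate 1 it was 2.04 with an adjusted p of 0.0484. It also lost its call without NT7 replicate 2 (log2FC 3.02, adjusted p of 0.0254 by edgeR) and without NT7 replicate 3 (3.18 and 0.0220). SERPINB6, a protease inhibitor found inside cells, stood at 160.3, 114 and 106 CPM in HT7. It stood at 80.2, 46.7 and 55.6 CPM in NT7, again with all HT7 samples above, as for 27.3% of all genes. Its log2FC of 1.06 ± 0.24 (SE) had an adjusted p of 0.00200 by edgeR, and was not called in the fits without HT7 replicate 1, NT7 replicate 2 or NT7 replicate 3, where it lay between 0.0108 and 0.0133.

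Among the coagulation factors, none of 9 tested genes was called on day 3, 1 was called higher and 1 lower on day 5, and none higher and 1 lower on day 7. The medians were 0.43, 0.26 and -0.12. That of day 5 was 0.02 with genes of 3 or fewer counts throughout a group set at their bound. The shares of all genes were 8.56% higher and 7.62% lower on day 5, then 16.7% and 16.9% on day 7. VWF, the endothelial and platelet protein that carries factor VIII and binds platelets, stood at 211 and 232 CPM in HT5 and at 92.9, 123 and 84.2 CPM in NT5. Its log2FC was 1.14 ± 0.28 (SE), with an adjusted p of 0.00747 by edgeR. The call was lost in 4 of 5 fits without 1 sample, at a log2FC of 1.06 without HT5 replicate 2. With the day 5 samples alone the adjusted p of VWF was 0.0186 by edgeR. On day 3, VWF stood at 198, 312 and 299 CPM in HT3 and at 137, 115 and 125 CPM in NT3, with a log2FC of 1.10 that edgeR did not call (adjusted p of 0.0560) and DESeq2 did (0.00240). On day 7 the log2FC was 0.29 and not called, with HT7 at 167, 184 and 379.7 CPM and NT7 at 198 to 199.9 CPM. VKORC1, the enzyme that recycles vitamin K for clotting factors, fell on days 5 and 7, with a log2FC of -1.01 ± 0.18 (SE) and then -0.96 ± 0.16 (SE), and adjusted p of 0.00124 and 0.000226 by edgeR. Without HT5 replicate 2 its day 5 value was -0.76, with an adjusted p of 0.0332, and with the day 5 samples alone the adjusted p was 0.0310. Its row shares a locus and its counts with PRSS53, so these genes cannot be told apart.

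Of the anticoagulants and clotting controls, none of 7 tested genes was called on day 3, and 1 was called higher and 1 lower on each of days 5 and 7. The medians were 0.05, -0.50 and 0.00. Among all genes, 8.56% were called higher and 7.62% lower on day 5, then 16.7% and 16.9% on day 7. PROS1, protein S, the cofactor of activated protein C, stood at 18.7, 25.7 and 15.7 CPM in HT7 and at 100.1, 90.5 and 94.4 CPM in NT7. All HT7 samples lay below NT7, as for 27.2% of all genes. The log2FC was -2.24 ± 0.28 (SE), with an adjusted p of 2.45e-05 by edgeR. On day 5 the log2FC was -1.75 ± 0.32 (SE), with an adjusted p of 0.00128 by edgeR, and -1.28 without HT5 replicate 2. With the day 5 samples alone the adjusted p of PROS1 was 0.0346 by edgeR, not called. SDC4, a heparan sulfate proteoglycan of cell surfaces, rose on days 5 and 7, with a log2FC of 1.65 ± 0.30 (SE) and then 1.59 ± 0.28 (SE), and adjusted p of 0.00131 and 0.000329 by edgeR. It stood at 216, 121 and 166 CPM in HT7 and at 67.0, 47.1 and 53.5 CPM in NT7. Without HT5 replicate 2 its day 5 value was 1.12. The day 5 rise of SDC4 was called in 6 of 8 alternative fits, with an adjusted p by edgeR as high as 0.0964.

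In the list of thrombin receptors and platelet adhesion, none of 6 tested genes was called on day 3, 2 were called higher and none lower on day 5, and 3 were called higher and 1 lower on day 7. The medians were 0.10, 0.33 and 0.74. Over all genes, the shares were 8.56% higher and 7.62% lower on day 5, then 16.7% and 16.9% on day 7. The receptors F2R, F2RL2 and F2RL3 of this list were not analysed here. THBS1, thrombospondin 1, a platelet and matrix glycoprotein, stood at 4145, 2422 and 3239 CPM in HT7 and at 369, 266 and 332 CPM in NT7. Its log2FC was 2.54 ± 0.35 (SE) on day 5 and then 3.34 ± 0.34 (SE), at adjusted p of 0.000267 and 5.71e-06 by edgeR. On day 5 it was 1.84 without HT5 replicate 2 and 3.00 without HT5 replicate 1, both called, and with the day 5 samples alone the adjusted p was 0.0159. THBS1 overlaps FSIP1 on the other strand. Whether counting used the strand is not given in the sources used here, so for any gene of these lists with a neighbour on the opposite strand the reads of both cannot be told apart. SELP, P-selectin, which activated endothelium and platelets display, stood at 62.9, 29.1 and 104 CPM in HT7 and at 12.8, 3.85 and 6.79 CPM in NT7. Its log2FC was 3.30 on day 5 and then 3.07, at adjusted p of 0.000944 and 0.000250 by edgeR.

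F2RL1, a receptor that proteases of the clotting cascade can cleave, stood at 41.0, 27.2 and 37.5 CPM in HT7 and at 19.1, 15.4 and 18.8 CPM in NT7. Its log2FC was 0.99 ± 0.18 (SE), with an adjusted p of 0.000363 by edgeR. ENTPD1, which removes the platelet activator ADP from the cell surface, stood at 14.7, 24.6 and 19.4 CPM in HT7 and at 73.5, 76.9 and 56.9 CPM in NT7. Its log2FC was -1.82 ± 0.19 (SE), with an adjusted p of 7.13e-06 by edgeR. On day 5 ENTPD1 was at -0.82 and just missed the threshold, with an adjusted p of 0.0102. DESeq2 called it (0.00132), as did edgeR with size-factor normalization (0.00956), with 1 entry per locus (0.00959) and without HT5 replicate 1 (log2FC -1.20, adjusted p of 0.00251). Without HT5 replicate 2 it was -0.54, with an adjusted p of 0.172.

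Markers of the cell types that can make these proteins were followed in the same libraries. In a whole homogenate, fewer cells of a type and less RNA per cell cannot be told apart. Of 10 endothelial markers, 7 were tested, and 1, 5 and 6 of them were called lower on days 3, 5 and 7, with none higher. For comparison with each list here, 0.107%, 7.62% and 16.9% of all genes were called lower on these days. The shares called higher were 0.0989%, 8.56% and 16.7%. The endothelial markers summed to 2370 to 2827 CPM in HT3, 1299 to 1401 CPM in HT5 and 872 to 1289 CPM in HT7. In the normoxia samples they summed to 2412 to 3329 CPM. Of the 7, PECAM1 was the 1 not called on day 7, with a log2FC of -0.05. Of 5 tested alveolar type 1 markers, 0, 2 and 3 were called lower on the successive days and none higher. AGER, CAV1 and RTKN2 were those called on day 7, and HOPX and PDPN were not, at log2FC of 0.35 and 0.15. The sum of the 5 was 1937 to 2539 CPM in HT7 against 6464 to 7245 CPM in NT7. Of 5 tested alveolar type 2 markers, none was called on days 3 and 5, and NAPSA was called lower on day 7 (log2FC -1.49), with sums of 13158 to 28185 CPM in HT7 and 15858 to 21497 CPM in NT7. Of 5 tested fibroblast markers, COL1A2 was called lower on day 5 (-0.79) and LUM higher on day 7 (1.25). Of 5 tested smooth muscle and pericyte markers, MYH11 and TAGLN were called lower on day 5, and MYH11 and CSPG4 on day 7, CSPG4 at -0.94. The part of these cell types in the changes of F3, PROCR and PLAUR was not tested.

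**Figure D5:**
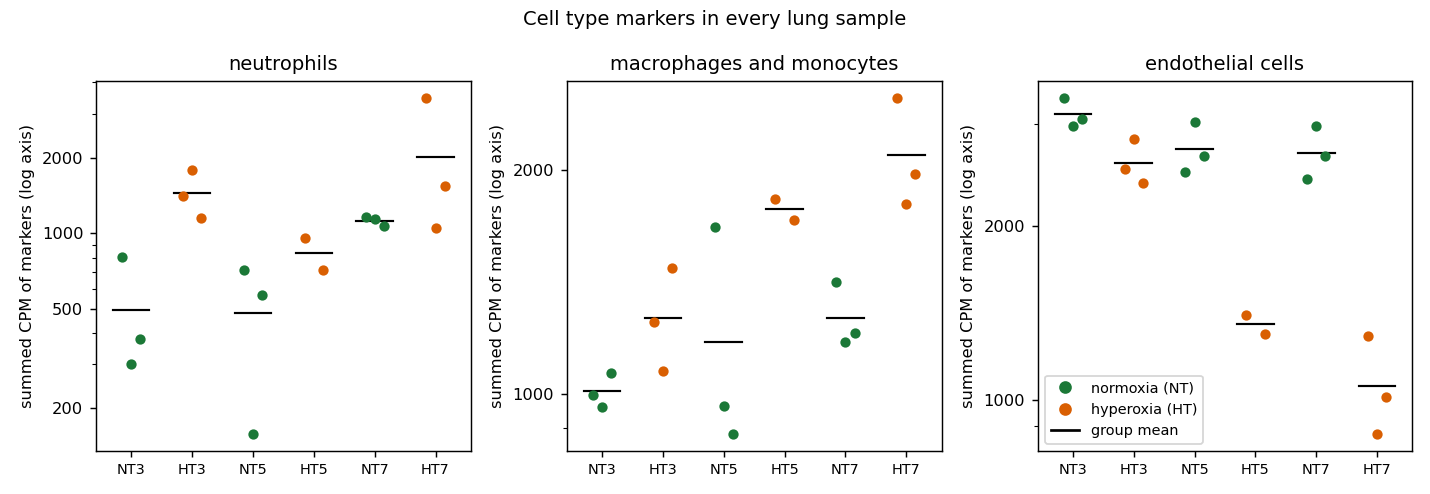
Summed CPM of neutrophil, macrophage and endothelial marker lists in every sample, on log axes; points are samples (green normoxia, orange hyperoxia) and bars are group means. HT7 replicate 1 has the highest neutrophil sum at 3474 CPM, macrophage sums in HT7 lie above NT7 through CD68 (the other 7 markers overlap), and endothelial sums in HT5 and HT7 lie below every normoxia sample.

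Neutrophils and macrophages carry PLAUR. Of 8 neutrophil markers, 7 were tested and none was called on any day by edgeR, with CXCR2 at an adjusted p of 0.0228 on day 7, MPO at or below 4.72 CPM in every library, and ELANE not analysed here. Their summed level was 3474, 1051 and 1546 CPM in HT7 and 1157, 1144 and 1068 CPM in NT7. HT7 replicate 1 was highest for this sum as it was for PLAUR, PLAT and SERPINB2. It was also highest for the macrophage and monocyte sum, at 2504 CPM. In it S100A8, S100A9 and S100A12 stood at 1018, 1507 and 708 CPM. CXCR2 was highest in the same sample, at 56.5 CPM, but CSF3R in HT7 replicate 3, at 191 against 168 CPM. HT7 replicate 2 had a neutrophil sum below all of NT7 and 40.4 CPM of PLAUR, above all of NT7. In HT3 the sum was 1151 to 1782 CPM against 299.8 to 806 CPM in NT3, and PLAUR overlapped between these groups. The part of neutrophils in the rise of PLAUR was not tested. Of 8 macrophage and monocyte markers, CD68 was called higher on day 5 (log2FC 0.86) and on day 7 (1.21), and MARCO was called lower on day 7 (-2.19). Their sum was 1803 to 2504 CPM in HT7 and 1177 to 1416 CPM in NT7, without overlap, and CD68 carried the difference. CD68 alone stood at 1179 to 1999 CPM in HT7 and 599 to 768 CPM in NT7, while the other 7 markers summed to 367 to 624 CPM in HT7 and 510.2 to 648 CPM in NT7, which overlapped. The median log2FC of the 8 markers on day 7 was -0.21. The part of macrophages in the rise of PLAUR and F3 was not tested.

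Of 7 platelet markers, 4 were tested and none was called on any day, and the list summed to between 16.5 and 55.1 CPM, with PF4 and GP1BB not analysed here. Hepatocyte markers summed to between 0.974 and 9.53 CPM. Of the 3 tested, APOA1 was called lower on day 5 (log2FC -3.01), at or below 4.26 CPM in every library. Skeletal muscle markers summed to 417 CPM in HT3 replicate 2 and 375 CPM in HT5 replicate 1, against 57.8 to 115.5 CPM elsewhere. MYLPF alone held 53.9 to 108 CPM in every library and was called lower on day 7 (log2FC -0.65). ACTA1 and MYH8 were also raised in HT3 replicate 3, at 16.9 and 15.2 CPM. The remaining libraries held at most 6.92 and 4.55 CPM of them. HT5 replicate 1 was the lower of the HT5 samples for F3, TFPI and PLAT and the higher for PROCR, PLAUR, PLAU and SERPINE2. Without it, F3 on day 5 was called with a log2FC of 2.19.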

How the data were processed

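Polyadenylated RNA of right lung homogenates had been sequenced from a stranded kit as paired-end reads. The authors deposited raw counts per gene locus, not normalized. The submitters' processing notes name FastQC, STAR 2.7.10a and the build OryCun2.0; the counting program and its use of strand are not given in the sources used here. A locus with several genes is listed once per gene with the same counts, and these repeats were kept in the totals behind CPM and in the tests.

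The tests used edgeR 4.0.16 (R 4.3.3): filterByExpr, TMM, 6 group means over all 17 samples, glmQLFit and glmQLFTest, a prior count of 0.125, and Benjamini-Hochberg over 13142 entries. Intervals are at 95% and, like the counts, give no information beyond the spread of these samples. The script was tested on simulated data. Figures were drawn with matplotlib 3.10.9. Alternatives were DESeq2 1.42.0, other normalizations, no count filter, 1 entry per locus, a prior count of 2 and other thresholds. Further ones were only the samples compared, a replicate block on only those samples, and leaving out each sample. Within-sample ratios and the macrophage sum without CD68 were added after seeing the data.

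Members and lists were chosen with earlier results of these data known. In the 4 lists, a gene was named if it had an adjusted p under 0.01 on at least 1 day; for each member up to 3 genes with the highest correlation were named. The lists are not complete, and some genes of the pathway are not reported here. Groups and replicate numbers came from the labels, which do not say what the numbers mean. Deviations from group means of same-numbered samples correlated at 0.166, 0.131 and 0.199 on day 3. Differently numbered samples were not compared, so these values do not settle whether the numbers are pairs. Values given are without the block unless a sentence names it or the pairing. The block changed no call of the 7 genes on day 3. No sequence is shown, as none was given for this build.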

Additional observations from a re-analysis of the deposited data

Results flagged for a closer look

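Of the 7 genes and the 31 tested genes of the 4 lists, 5 are given here, for which the effect of hyperoxia differed between days 7 and 3 in the test of that difference (edgeR's quasi-likelihood test with Benjamini-Hochberg adjustment), where 7.27% of all genes were called. The log2FC of F3 was larger on day 7 by 2.15 ± 0.36 (SE), with an adjusted p of 0.00195. That of THBS1 was larger by 2.95 ± 0.45 (SE), with an adjusted p of 0.00149. The difference was -2.32 ± 0.38 (SE) for PROS1, with an adjusted p of 0.00176. It was -1.87 ± 0.27 (SE) for ENTPD1, with an adjusted p of 0.00101, and -1.03 ± 0.22 (SE) for VKORC1, with an adjusted p of 0.00688. All 5 comparisons use the same samples of days 3 and 7. Groups of 2 or 3 samples are too small to test single samples as outliers.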

How the results depend on the processing

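Of 560 alternative values for the 7 genes, 523 kept their direction and their side of the threshold, 12 lost a call, 5 gained one and 20 changed sign, none of the 20 past the threshold. The number of the 7 genes called on day 5 was 2, and 0 with only the samples of that day, 0 with the replicate block, 0 as DEGs and 0 to 1 without 1 sample. On day 7 it was 2, and 1 (F3) with only the samples of that day, 1 (F3) with the replicate block and 2 to 3 without 1 sample. For days 7 and 3 it was 1, and 2 by DESeq2 and 1 to 2 without 1 sample. For days 5 and 3 it was 0, and 1 by DESeq2 and 0 to 1 without 1 sample. On day 3 it was 0 in every fit. Day 5 thus depended on pooling the spread over all 17 samples: F3 had an adjusted p of 0.0161 by edgeR with the day's samples alone and 0.0666 with the block, and PROCR had 0.0327 and 0.122. PLAUR on day 7 had 0.0122 with the block at a log2FC of 1.75, and on day 5 THBS1 had 0.0704 and SELP 0.0666 with it. In the alternative fits that kept all day 5 samples, the log2FC lay at 2.34 to 2.55 for THBS1 and 3.25 to 3.31 for SELP. Same-numbered samples deviated together with correlations of 0.264 and 0.141 on day 5, which has only 2 pairs, and of 0.174, 0.109 and 0.0695 on day 7, where 1 pair was under 0.1. Whether the numbers pair the samples is not settled for any day. The block was fitted on the samples of the day alone. There the calls of F3 and PROCR on day 5 and of PLAUR on day 7 were already lost without the block.

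Over all genes, the 27 calls of day 3 became 205 by DESeq2, 26 with only that day's samples and 8 with the block. They became 7 as DEGs, 136 at an adjusted p under 0.05 and 2 to 23 without 1 sample. The 2126 calls of day 5 became 12 with only that day's samples, 0 with the block, 208 as DEGs, 4115 at 0.05 and 221 to 2371 without 1 sample. The 4413 calls of day 7 became 2924 with only that day's samples, 2767 with the block, 603 as DEGs and 3254 to 4802 without 1 sample. For days 7 and 3, 955 became 1941 by DESeq2 and 358 to 1967 without 1 sample, and for days 5 and 3, 0 became 309 by DESeq2 and 0 to 240.

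Small log2FC changed sign when 1 sample was left out. On day 3 the ranges were -0.15 to 0.13 for PLAUR, -0.092 to 0.058 for SERPINE2, -0.12 to 0.19 for TFPI, -0.011 to 0.11 for VKORC1, -0.064 to 0.24 for PROS1, -0.061 to 0.59 for THBS1 and -0.019 to 0.10 for ENTPD1. On day 5 SERPINE2 ran from -0.68 to 0.30. On day 7 PLAU ran from -0.15 to 0.27, PLAT from -0.37 to 0.96, SERPINE2 from -0.022 to 0.13 and VWF from -0.17 to 0.50. For days 7 and 3 PLAU ran from -0.27 to 0.15 and SERPINE2 from -0.010 to 0.16, and for days 5 and 3 PLAU ran from -0.050 to 0.43 and SERPINE2 from -0.64 to 0.34. TFPI on day 3 was -0.012 with upper-quartile normalization. The cause of these changes was not tested. With 2 samples in HT5, day 5 is the least certain, and leaving out either leaves 1 sample that is assumed to vary like the other groups.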
